A study of Mus musculus with 12 samples.

Results

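The 10 genes described here are the transcription factor gene Atf4, 4 genes of the stress response that ATF4 drives (Ddit3, Trib3, Chac1 and Asns), and 5 genes of serine synthesis and mitochondrial folate metabolism (Phgdh, Psat1, Shmt2, Mthfd2 and Aldh1l2). They were chosen by symbol from the 15754 genes of a count table that had been filtered on scaled counts before deposit. Each matched 1 row, and all 10 passed a further filter on low counts, which removed 0 genes. The libraries came from primary white adipocytes of mouse, differentiated in culture from the stromal vascular fraction of epididymal fat, the part of the tissue that is left once the fat cells are removed. The donors were male wild-type C57BL/6 mice on chow, aged 8 weeks. The groups were adipocytes given a let-7d-5p mimic, adipocytes given a let-7e-5p mimic and adipocytes given a negative control, with 4 libraries each. A mimic is a synthetic small RNA that stands in for a mature microRNA. All groups shared the induction mix (insulin at 850 nM, IBMX at 250 µM, rosiglitazone at 1 µM and dexamethasone at 1 µM), the lipid-based transfection on day 4 after induction and the harvest on day 7.

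ATF4 is a basic leucine zipper transcription factor whose protein is made when the translation factor eIF2 is phosphorylated under amino acid shortage, endoplasmic reticulum stress or mitochondrial stress. It switches on genes that take up and make amino acids, charge transfer RNAs and, in mitochondria, move one-carbon units from serine onto folate. Because ATF4 is controlled largely at translation, its message need not follow its activity. MicroRNAs of the let-7 family pair through their seed, bases 2 to 8, with sites in the 3' untranslated region of messages and lower them.

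The sequences of the mimicked microRNAs are shown because they share their seed, in capitals, so that messages with a seed site are candidate targets of both. They are the mature forms in RefSeq (GRCm38.p6), 5′ to 3′, each of 22 bases.
mmu-let-7d-5p: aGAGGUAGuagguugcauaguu
mmu-let-7e-5p: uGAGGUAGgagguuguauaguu
Counted from 1 at the 5′ end, with the let-7d base first, they differ by A1U, U9G and C16U. A seed site was sought in the longest annotated 3' untranslated region as CTACCTC, or as TACCTCA, on the message strand, and the forms overlap where CTACCTCA occurs. None of the 10 genes held one in that window, and 2298 of 13541 tested genes with such a region did (17.0%). For scale, Hmga2, a chromatin protein gene and a known let-7 target, held 7, of which the one nearest the stop codon is printed with the match in capitals (chr10:120364213-120364242, minus strand, GRCm38.p6).
Hmga2 site: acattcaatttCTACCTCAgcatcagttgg

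The identifiers given to the samples run in 2 separate number series, whose meaning the labels do not give, with 2 libraries of every group in each. They are called the second and the first series. Total counts ran from 15071299 to 33396316 per library. The first principal component separated the series and held 81.9% of the variance. Adipocyte markers (9 of 10 in the table) were present in every library but summed to 3750 to 5490 CPM (counts scaled to a fixed library size) in the second series and to 15500 to 17300 CPM in the first, and macrophage markers (10 of 10) summed to 25.2 to 132 CPM in the second and 198 to 296 CPM in the first. None of 9 lymphocyte markers was in the table, which had been filtered on CPM before deposit. All comparisons of mimic with control were therefore fitted with a term for the series or within each series. Hmga2 averaged 11.3 CPM with let-7d, 13.5 CPM with let-7e and 20.0 CPM in control. It fell with let-7d by 0.84 on the log2 scale (SE 0.098, adjusted p = 4.73e-05) and with let-7e by 0.59 (SE 0.095, adjusted p = 0.00105).

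The first question was whether the mimics changed the messages of ATF4 and its targets. With let-7d against control, 4 of the 10 genes fell (Asns, Chac1, Shmt2 and Aldh1l2) and 0 rose, where 9.81% of all genes fell and 6.41% rose. With let-7e against control, 1 of the 10 rose (Ddit3) and 0 fell, where 3.81% of all genes rose and 5.69% fell. Calls are edgeR's quasi-likelihood test with Benjamini-Hochberg adjustment over all 15754 genes at an adjusted p under 0.05, and both comparisons use the same control libraries. The median log2 fold change of the 10 genes was -0.20 with let-7d, beside -0.0022 over all genes, and -0.043 with let-7e, beside -0.0019. Nothing in the labels says that replicates are separate cultures or animals, so these p-values measure the spread between the libraries, which may be technical. In bulk RNA, fewer cells that express a gene and less of its RNA per cell cannot be told apart.

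**Figure D1:**
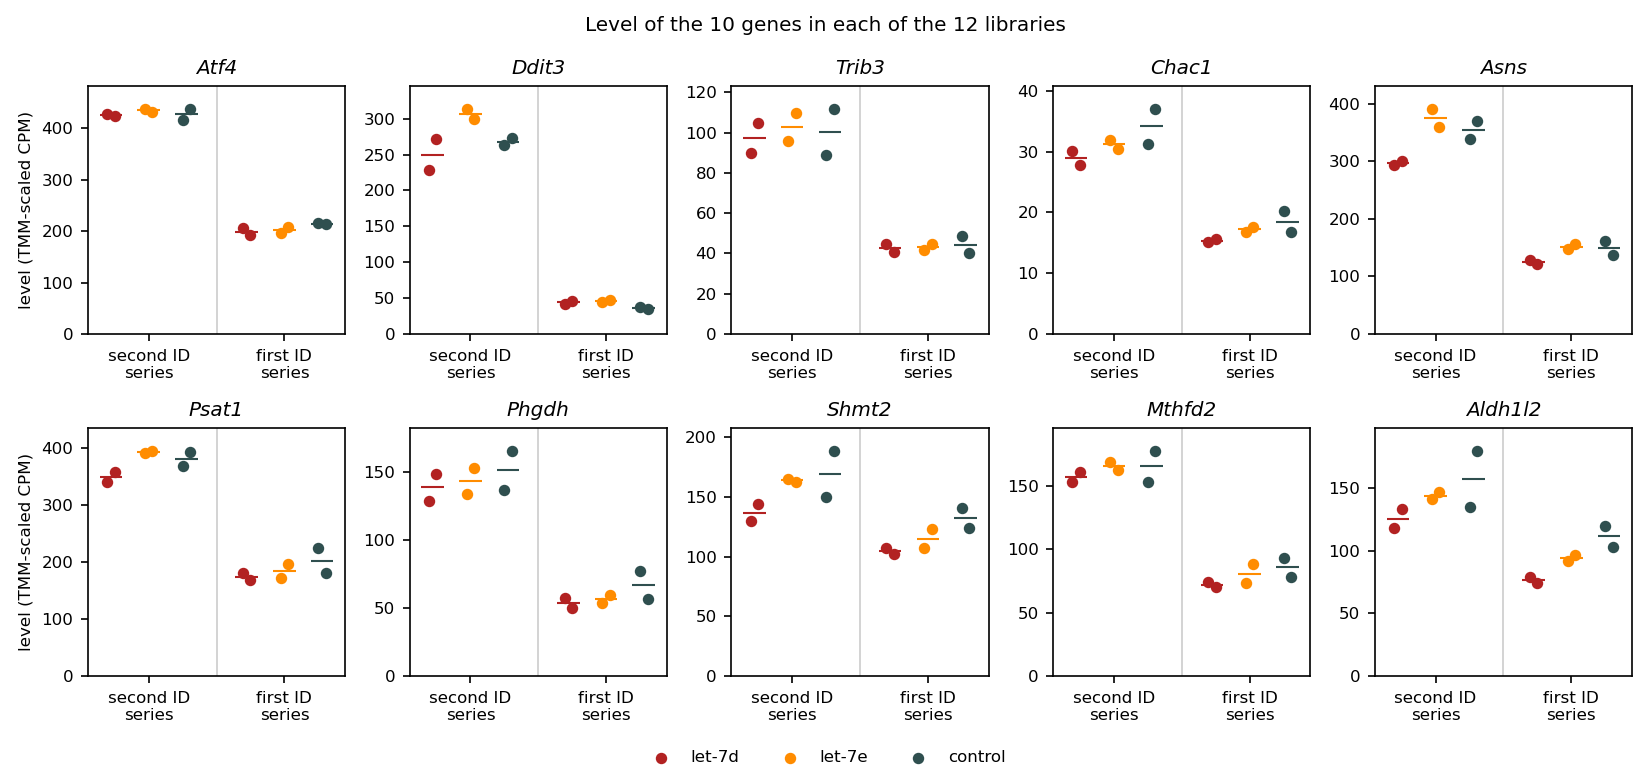
Level of each of the 10 genes (TMM-scaled CPM, linear axis from 0) in every library, with the second series left of the first and let-7d, let-7e and control from left to right within each; points are libraries and lines are the means of 2. All 10 genes are higher in the second series, and for Chac1, Asns, Shmt2 and Aldh1l2 both let-7d points lie below both control points in each series.

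Atf4, on chromosome 15 (chr15:80255184-80257541, plus strand), did not change detectably. In the second series its level was 428 and 423 CPM with let-7d, 438 and 432 CPM with let-7e and 416 and 437 CPM in control. It was 205 and 192 CPM with let-7d, 196 and 207 CPM with let-7e and 215 and 213 CPM in control in the first series. Mimic and control libraries overlapped in the second series, and in the first all 4 mimic libraries lay below both controls. The log2 fold change was -0.055 with let-7d (SE 0.047, adjusted p = 0.467) and -0.026 with let-7e (SE 0.047, adjusted p = 0.804). Atf4 had the highest level per length of the 10 genes in both series, at 182 CPM per kilobase of exon in the second and 86.8 in the first.

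Ddit3 encodes CHOP, a transcription factor that ATF4 induces and that acts in prolonged stress (chr10:127290774-127296288, plus strand). Its levels in the second series were 228 and 271 CPM with let-7d, 314 and 299 CPM with let-7e and 263 and 273 CPM in control. Those in the first were 42.1 and 46.6 CPM with let-7d, 44.8 and 47.1 CPM with let-7e and 37.4 and 34.6 CPM in control. Both let-7e libraries lay above both controls in each series, as they did for 8.7% of all genes, while the let-7d libraries lay above the controls in the first series and overlapped them in the second. With let-7e Ddit3 rose by 0.26 on the log2 scale (SE 0.077, adjusted p = 0.0454), and with let-7d the log2 fold change was 0.074 (SE 0.078, adjusted p = 0.574). The let-7e call is narrow. It was lost without control replicate 1 (adjusted p = 0.115), control 2 (0.095), control 3 (0.0571), let-7e 1 (0.0774), let-7e 2 (0.107), let-7e 3 (0.119) and let-7e 4 (0.0878), and with limma-voom (0.0631), at log2 fold changes of 0.22 to 0.28. Of the exon bases of Ddit3, 3.97% overlap the methionyl-tRNA synthetase gene Mars on the opposite strand and 6.13% a second Ensembl entry of the same symbol that is not a row of the table.

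Trib3 encodes a pseudokinase that ATF4 and CHOP induce and that damps their activity (chr2:152337422-152344032, minus strand). Its level ranged from 88.9 to 112 CPM over the second series and from 40.1 to 48.5 CPM over the first, and the mimics overlapped control in both. Its log2 fold change was -0.055 with let-7d (SE 0.082, adjusted p = 0.711) and -0.00039 with let-7e (SE 0.081, adjusted p = 0.999).

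Chac1 encodes an enzyme that breaks down glutathione (chr2:119351229-119354381, plus strand). The second series gave 30.1 and 27.8 CPM with let-7d, 32.0 and 30.4 CPM with let-7e and 31.3 and 37.1 CPM in control. The first gave 15.1 and 15.6 CPM with let-7d, 16.8 and 17.6 CPM with let-7e and 20.2 and 16.8 CPM in control. The let-7d libraries were the lowest in both series, and those of let-7e overlapped control. Chac1 fell with let-7d by 0.25 on the log2 scale (SE 0.070, adjusted p = 0.0217), and its log2 fold change with let-7e was -0.12 (SE 0.069, adjusted p = 0.313). The let-7d call was lost without control replicate 1 (adjusted p = 0.0702), control 4 (0.0836), let-7d 1 (0.0569), let-7d 2 (0.0505) and let-7d 4 (0.0644), at log2 fold changes of -0.26 to -0.20, and with only the let-7d and control libraries in the fit (adjusted p = 0.0592).

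Asns encodes asparagine synthetase, which makes asparagine from aspartate and glutamine (chr6:7675169-7693254, minus strand). In the second series it had 293 and 301 CPM with let-7d, 392 and 360 CPM with let-7e and 339 and 371 CPM in control. Libraries of the first series had 128 and 121 CPM with let-7d, 148 and 156 CPM with let-7e and 161 and 137 CPM in control. The let-7d libraries lay below every let-7e and control library of their series, and let-7e overlapped control in both. Asns fell with let-7d by 0.26 on the log2 scale, to 0.835 of control (SE 0.057, adjusted p = 0.00555), and this call was kept in 8 of 8 fits that left out 1 library. With let-7e its log2 fold change was 0.057 (SE 0.057, adjusted p = 0.609).

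Phgdh and Psat1 encode the first and the second enzyme of serine synthesis from 3-phosphoglycerate (chr3:98313170-98339990 and chr19:15904678-15947337, both on the minus strand). Phgdh averaged 139 ± 13.5 CPM with let-7d, 144 ± 13.3 CPM with let-7e and 151 ± 20.9 CPM in control in the second series (SD, n = 2 each). Phgdh in the first series averaged 53.8 ± 4.94 CPM with let-7d, 56.7 ± 4.10 CPM with let-7e and 67.2 ± 14.7 CPM in control. The Phgdh groups overlapped in both series, and its log2 fold change was -0.22 with let-7d (SE 0.094, adjusted p = 0.123) and -0.16 with let-7e (SE 0.093, adjusted p = 0.335). Psat1 averaged 350 ± 13.9 CPM with let-7d, 393 ± 3.01 CPM with let-7e and 381 ± 17.8 CPM in control in the second series. Psat1 in the first series averaged 174 ± 9.78 CPM with let-7d, 184 ± 16.6 CPM with let-7e and 203 ± 30.9 CPM in control. The let-7d libraries lay below control in the second series only, and the log2 fold change of Psat1 was -0.17 with let-7d (SE 0.068, adjusted p = 0.101) and -0.045 with let-7e (SE 0.068, adjusted p = 0.759). Without control replicate 3, Phgdh passed the test with let-7d (adjusted p = 0.0377).

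Shmt2 encodes the mitochondrial enzyme that splits serine into glycine and a one-carbon unit on tetrahydrofolate (chr10:127517123-127522444, minus strand). In the second series it had 130 and 144 CPM with let-7d, 165 and 163 CPM with let-7e and 150 and 189 CPM in control. In the first it had 107 and 102 CPM with let-7d, 107 and 123 CPM with let-7e and 141 and 124 CPM in control. Both let-7d libraries lay below both controls in each series, while the let-7e libraries lay below control in the first and between the controls in the second. Shmt2 fell with let-7d by 0.32 on the log2 scale, to 0.799 of control (SE 0.073, adjusted p = 0.00674), in 8 of 8 fits without 1 library. With let-7e its log2 fold change was -0.12 (SE 0.072, adjusted p = 0.347).

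Mthfd2 encodes the mitochondrial dehydrogenase and cyclohydrolase that oxidises the unit carried from serine (chr6:83305691-83325908, minus strand). It averaged 157 ± 5.59 CPM with let-7d, 166 ± 3.80 CPM with let-7e and 166 ± 18.1 CPM in control in the second series (SD, n = 2 each). For the first series the averages were 71.9 ± 2.82 CPM with let-7d, 80.9 ± 10.2 CPM with let-7e and 85.9 ± 10.6 CPM in control. Its let-7d libraries lay below control in the first series only. The log2 fold change was -0.17 with let-7d (SE 0.071, adjusted p = 0.130) and -0.042 with let-7e (SE 0.071, adjusted p = 0.789). Without control replicate 3 Mthfd2 passed the test with let-7d (adjusted p = 0.0394).

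Aldh1l2 encodes the mitochondrial 10-formyltetrahydrofolate dehydrogenase, which releases the unit as CO2 and yields NADPH (chr10:83487450-83534140, minus strand). Levels in the second series were 118 and 133 CPM with let-7d, 141 and 147 CPM with let-7e and 135 and 180 CPM in control. Levels in the first series were 78.9 and 74.4 CPM with let-7d, 91.6 and 96.4 CPM with let-7e and 120 and 103 CPM in control. The order let-7d, let-7e, control held without overlap in the first series, and in the second the let-7d libraries were the lowest and let-7e overlapped control. Aldh1l2 fell with let-7d by 0.43 on the log2 scale, to 0.740 of control (SE 0.081, adjusted p = 0.00183), in 8 of 8 fits without 1 library. With let-7e its log2 fold change was -0.19 (SE 0.080, adjusted p = 0.161), and without control replicate 3 it passed the test at -0.29 (adjusted p = 0.0100). Of its 7503 exon bases, 14.1% overlap D10Wsu102e on the opposite strand, whose own log2 fold change with let-7d was -0.075 (SE 0.063, adjusted p = 0.468).

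**Figure D2:**
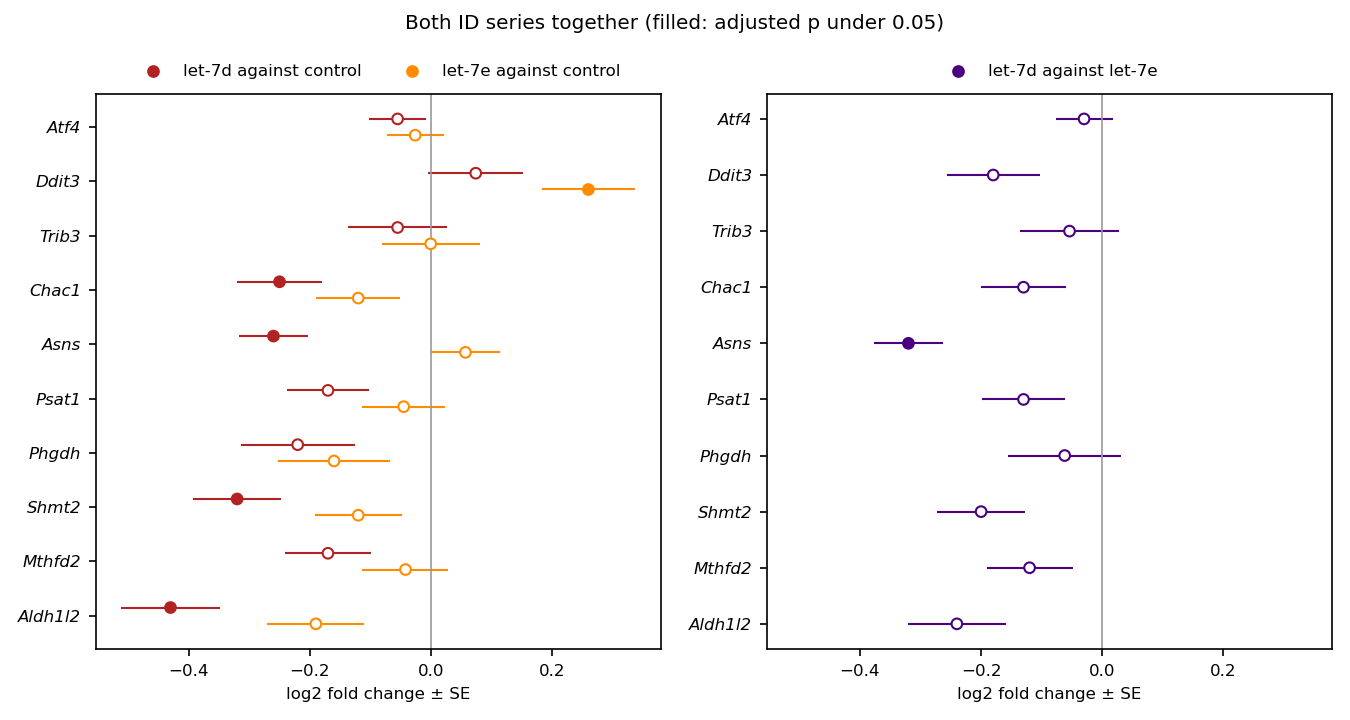
Log2 fold change with its SE for each of the 10 genes, both series fitted together, for let-7d (red) and let-7e (orange) against control on the left and let-7d against let-7e on the right; filled points passed an adjusted p of 0.05. Chac1, Asns, Shmt2 and Aldh1l2 are filled on the negative side for let-7d and Ddit3 on the positive side for let-7e, and on the right Asns is filled at -0.32.

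In 4 of the 10 genes (Chac1, Asns, Shmt2 and Aldh1l2) both let-7d libraries lay below both controls in each series, against 13.4% of all genes. Summed over the 10 genes, the level was 1940 and 2070 CPM with let-7d, 2270 and 2250 CPM with let-7e and 2080 and 2340 CPM in control in the second series. The sum in the first series was 933 and 880 CPM with let-7d, 947 and 1040 CPM with let-7e and 1140 and 984 CPM in control. The let-7d sums were the lowest in each series. Summed smooth muscle and pericyte markers (10 of 10 in the table) were also lower with the mimics, at 5390 to 5890 CPM with let-7d, 5690 to 5810 CPM with let-7e and 6810 to 7150 CPM in control in the second series. In the first they were 3280 to 3410 CPM with let-7d, 3020 to 3300 CPM with let-7e and 3660 to 4730 CPM in control. Acta2 made up most of these sums, averaging 4720 CPM in the second series and 2440 CPM in the first. By gene, 4 of these 10 markers fell and 0 rose with each mimic, where 9.81% of all genes fell with let-7d and 5.69% with let-7e. Summed macrophage markers in the second series were 60.1 to 132 CPM with let-7d, 44.2 to 67.8 CPM with let-7e and 25.2 to 35.4 CPM in control. In the first they overlapped, at 258 to 275 CPM with let-7d, 198 to 296 CPM with let-7e and 260 to 266 CPM in control. Of the 10 preadipocyte and fibroblast markers 4 rose and 1 fell with let-7d, beside 6.41% and 9.81% of all genes. With let-7e 3 rose and 1 fell, beside 3.81% and 5.69%. Pdgfra, a receptor gene of fat cell progenitors, rose by 0.31 with let-7d (SE 0.052, adjusted p = 0.000794) and 0.21 with let-7e (SE 0.052, adjusted p = 0.0178). Thy1 was the marker that fell, at -0.32 with let-7d (SE 0.094, adjusted p = 0.0279) and -0.46 with let-7e (SE 0.094, adjusted p = 0.00576). The count that fell with let-7d was 0 without control 1, control 2, let-7d 1 or let-7d 2. The count that rose was 2 with let-7d without control 1, control 2, control 4, let-7d 2 or let-7d 3, and 0 to 1 with let-7e without control 4, let-7e 1, let-7e 2 or let-7e 3. These markers summed to 8350 to 8710 CPM with let-7d, 8250 to 8460 CPM with let-7e and 7770 to 8310 CPM in control in the second series. Their sums in the first series were 17700 to 18500 CPM with let-7d, 19400 to 20900 CPM with let-7e and 16900 to 19500 CPM in control. Col1a1 made up most of these sums, averaging 5920 CPM in the second series and 17200 CPM in the first. Of the 10 markers 7 were higher in the second series and 3 lower (median log2 fold change 1.35). Over all genes 41.7% were higher there and 40.0% lower. The part of these cell type markers in the results above was not tested.

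Set directly against each other, the mimics differed at 24 of 15754 genes (0.152%), of which Asns was 1. Asns was lower with let-7d than with let-7e by a log2 fold change of -0.32 (SE 0.057, adjusted p = 0.0394), and its let-7d libraries lay below its let-7e libraries in both series. That call was lost in each of the 8 fits that left out 1 of the let-7d or let-7e libraries, at log2 fold changes of -0.34 to -0.29 and adjusted p-values of 0.0670 to 0.186. All 10 log2 fold changes were negative (median -0.13, beside -0.0042 over all genes), among them -0.24 for Aldh1l2 (SE 0.081, adjusted p = 0.344), -0.20 for Shmt2 (SE 0.073, adjusted p = 0.396) and -0.18 for Ddit3 (SE 0.077, adjusted p = 0.477). For Chac1, Asns, Shmt2 and Aldh1l2 both let-7d libraries lay below both let-7e libraries in each series, as for 7.5% of all genes, though in Shmt2 the nearest libraries of the first series round to the same 107 CPM. For the other 9 genes the test did not separate the mimics, which does not show that they act alike.

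Each series was next taken apart, with 2 libraries per group and 6 residual degrees of freedom shared by all groups. With let-7d against control, 0 of the 10 genes passed the test in the second series by edgeR, where 8.56% of all genes did. When the 6 libraries of that series were fitted alone, 0 passed as well. An unadjusted p under 0.05 was reached there by 4 of the 10, beside 3737 of all 15754 genes. Of the 10, 2 fell in the first series, Shmt2 by 0.34 on the log2 scale (SE 0.10, adjusted p = 0.0470) and Aldh1l2 by 0.55 (SE 0.11, adjusted p = 0.00710), where 6.28% of all genes fell. The estimates for Asns were -0.26 in the second series (SE 0.081, adjusted p = 0.0634) and -0.26 in the first (SE 0.084, adjusted p = 0.0570), and those for Shmt2 were -0.30 in the second (SE 0.10, adjusted p = 0.0779) and -0.34 in the first. Aldh1l2 stood at -0.33 in the second (SE 0.11, adjusted p = 0.0803). The median of the 10 genes with let-7d was -0.12 in the second series and -0.26 in the first, beside -0.012 and 0.0012 over all genes. With let-7e against control, 0 of the 10 passed in the second series by edgeR, where 2.48% of all genes did, and 0 with its 6 libraries alone. An unadjusted p under 0.05 was reached by 1 of the 10, beside 2374 of all 15754 genes. Ddit3 alone of the 10 rose with let-7e in the first series, by 0.35 (SE 0.092, adjusted p = 0.0347), where 3.10% of all genes rose.

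The direction of Ddit3 with let-7d was -0.10 on the log2 scale in the second series (SE 0.080, adjusted p = 0.475) and 0.30 in the first (SE 0.093, adjusted p = 0.0518). The difference of these effects, second series minus first, was -0.41 (SE 0.12) and did not pass the adjustment over all genes (unadjusted p = 0.00508, adjusted p = 0.160). For let-7d, 0 of the 10 genes differed between the series by edgeR, where 0.241% of all genes did. For let-7e also 0 of the 10 did, where 0.00635% of all genes did. At an unadjusted p under 0.05 there was 1 of the 10 for let-7d, beside 2136 of all 15754 genes. For let-7e there were 0 of the 10 at that cut, beside 1398 of all genes.

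**Figure D3:**
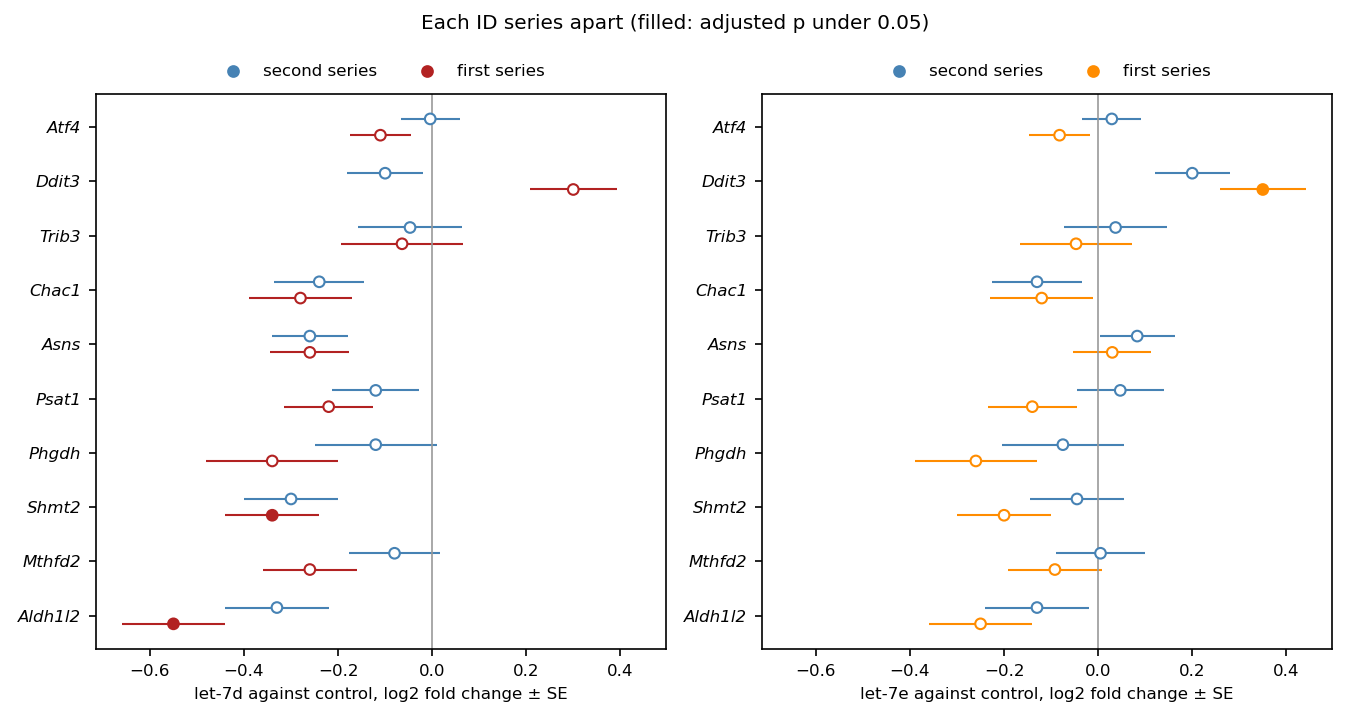
Log2 fold change against control with its SE for each gene in the second series (blue, upper point) and the first series (red or orange, lower point), let-7d on the left and let-7e on the right; filled points passed an adjusted p of 0.05. With let-7d the 2 series give nearly equal values for Asns (-0.26 in each), while Ddit3 stands at -0.10 in the second series and 0.30 in the first.

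Each of the 10 genes also differed between the series themselves. All 10 were higher in the second series, where 41.7% of all genes were higher and 40.0% lower, with a median log2 fold change of 1.05, beside 0.028 over all genes. Ddit3 differed most of the 10, at 275 ± 30.1 CPM in the second series and 42.1 ± 5.11 CPM in the first (SD, n = 6 each). This came to 2.71 on the log2 scale (SE 0.066, adjusted p = 2.69e-15). Phgdh followed at 1.29 (SE 0.077), Asns at 1.27 (SE 0.047), Trib3 at 1.21 (SE 0.067), Atf4 at 1.07 (SE 0.039), Mthfd2 at 1.04 (SE 0.058), Psat1 at 1.00 (SE 0.056), Chac1 at 0.88 (SE 0.058), Aldh1l2 at 0.61 (SE 0.066) and Shmt2 at 0.42 (SE 0.059). In each of these the lowest library of the second series lay above the highest of the first, except for Shmt2 and Aldh1l2, whose ranges overlapped. The share of all genes that are separated in this way was not counted, so the separation cannot be called particular to these genes. The adipocyte markers moved the other way, with 9 of 9 lower in the second series and a median log2 fold change of -2.48. What else differed between the series cannot be told apart from these differences.

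The order of the levels per length also differed by series. In the second series Ddit3 stood next to Atf4, at 160 CPM per kilobase of exon beside 182, with overlapping ranges, followed by Asns at 125 and Psat1 at 88.1. Phgdh (58.2), Shmt2 (50.4), Trib3 (47.2) and Mthfd2 (46.7) followed there, each overlapping its neighbour, and Chac1 (19.2) and Aldh1l2 (19.0) were lowest. In the first series Atf4 at 86.8 was apart from Asns at 51.8, which overlapped Psat1 at 44.0, and Psat1 overlapped Shmt2 at 37.8. Ddit3 (24.6), Phgdh (23.8), Mthfd2 (22.8) and Trib3 (20.4) overlapped one after the other in the first series, and Aldh1l2 (12.6) and Chac1 (10.4) were again lowest.

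The promoters of the 10 genes were searched for the amino acid response motif, the kind of site at which ATF4 and its C/EBP partners bind, spelled TGATGNAA and, on the other strand, TTNCATCA. It was sought from 250 bases before to 50 bases after the start in RefSeq's promoter table (GRCm38.p6), which has an entry for 9 of the 10 genes. The motif stood in 3 of the 9 (Trib3, Chac1 and Asns), in 3.97% of all 32851 promoters of the table and in 2.91% of 11240 tested genes. These 3 promoters are shown, 5′ to 3′ on the strand of the gene with the motif in capitals, because they hold the motif. Asns and Chac1 fell with let-7d, and Trib3 did not change detectably. Shmt2, which also fell, held 0 matches, and Aldh1l2, which fell too, is the gene without an entry. The match lies at bases -23 to -16 from the start in Asns on the strand of the gene, at -193 to -186 in Chac1 and at 15 to 22 in Trib3, both on the other strand. A match is a description and not a binding site. The regions are chr6:7693160-7693459 for Asns, chr2:119350992-119351291 for Chac1 and chr2:152344011-152344310 for Trib3.
Asns promoter: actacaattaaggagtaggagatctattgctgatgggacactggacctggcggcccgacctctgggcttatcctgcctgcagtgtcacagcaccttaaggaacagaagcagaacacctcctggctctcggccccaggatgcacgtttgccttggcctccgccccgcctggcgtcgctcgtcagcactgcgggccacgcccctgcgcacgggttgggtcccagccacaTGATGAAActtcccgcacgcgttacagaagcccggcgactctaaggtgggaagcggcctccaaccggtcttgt
Chac1 promoter: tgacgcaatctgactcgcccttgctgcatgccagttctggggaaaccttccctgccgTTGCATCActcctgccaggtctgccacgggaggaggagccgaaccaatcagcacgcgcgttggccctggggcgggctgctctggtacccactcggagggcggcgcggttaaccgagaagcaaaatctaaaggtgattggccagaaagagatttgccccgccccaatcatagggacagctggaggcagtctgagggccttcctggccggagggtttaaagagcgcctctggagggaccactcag
Trib3 promoter: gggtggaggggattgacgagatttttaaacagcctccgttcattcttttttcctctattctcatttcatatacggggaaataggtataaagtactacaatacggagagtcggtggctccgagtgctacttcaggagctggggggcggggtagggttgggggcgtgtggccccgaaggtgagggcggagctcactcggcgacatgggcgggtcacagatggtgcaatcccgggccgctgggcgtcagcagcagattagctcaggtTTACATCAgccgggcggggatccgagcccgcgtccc

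Of 21 other stress targets of ATF4, 8 fell (38.1%, beside 9.81% of all genes) and 0 rose with let-7d (median log2 fold change -0.15). With let-7e 5 fell (23.8%, beside 5.69% of all genes) and 0 rose (median -0.074). Adm2, a peptide hormone, fell with let-7d by 0.79 on the log2 scale (SE 0.15, adjusted p = 0.00249), and its log2 fold change with let-7e was -0.34 (SE 0.14, adjusted p = 0.164). Gdf15, a secreted stress hormone, fell by 0.52 with let-7d (SE 0.13, adjusted p = 0.0118) and by 0.52 with let-7e (SE 0.13, adjusted p = 0.0168). The death receptor gene Tnfrsf10b fell by 0.31 with let-7d (SE 0.065, adjusted p = 0.00433) and by 0.42 with let-7e (SE 0.065, adjusted p = 0.000663), and the lipoprotein receptor gene Vldlr fell by 0.23 (SE 0.051, adjusted p = 0.00581) with let-7d and 0.25 (SE 0.050, adjusted p = 0.00569) with let-7e. Of the let-7e calls, Ndrg1 stood at -0.11 in the second series and -0.85 in the first, and Ero1l at -0.11 and -0.52. Gdf15 stood at -0.57 and -0.47, Tnfrsf10b at -0.46 and -0.39 and Vldlr at -0.20 and -0.30 in the same order. With let-7d Ndrg1 stood at -0.21 in the second series and -0.90 in the first, and Ero1l at -0.12 and -0.51. Without 1 library the count that fell ranged from 5 to 9 with let-7d, lowest without let-7d replicate 2, and from 2 to 5 with let-7e. It was 2 without let-7e replicate 1, and 3 without let-7e 2, control 1 or control 2, and the let-7e call of Gdf15 was lost without let-7e 1, let-7e 3 or control 4 (highest adjusted p 0.0593).

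The aminoacyl-tRNA synthetases, which load amino acids onto transfer RNAs, made up 20 of 21 genes of a further list, with the tRNA exporter Xpot. With let-7d 9 of 21 fell (42.9%, beside 9.81% of all genes) and 0 rose (median -0.16), and with let-7e 2 fell (9.52%, beside 5.69%) and 0 rose (median -0.050). Iars, for isoleucine, fell by 0.46 with let-7d (SE 0.063, adjusted p = 0.000175) and by 0.25 with let-7e (SE 0.063, adjusted p = 0.0216), the second call being lost without control 1, control 4, let-7e 1 or let-7e 4 (highest adjusted p 0.0813). Qars, for glutamine, fell by 0.30 with let-7d (SE 0.048, adjusted p = 0.000532) and by 0.29 with let-7e (SE 0.048, adjusted p = 0.00114). Kars, for lysine, and Gars, for glycine, fell with let-7d by 0.36 (SE 0.047, adjusted p = 0.000102) and 0.31 (SE 0.054, adjusted p = 0.00110). The let-7d count was 5 without control replicate 1, control 4 or let-7d 3, and 6 without let-7d 1, and the let-7e count was 1 without control 1, control 4, let-7e 1 or let-7e 4 and 5 without control 3. Between the series 17 of the 21 were higher in the second (81.0%, beside 41.7% of all genes) and 1 was lower (4.76%, beside 40.0%). Of 12 amino acid transporters of the ATF4 response, 0 passed the edgeR test with either mimic, with 1 at most in the fits that left out a library. The amino acid transporter subunit gene Slc3a2 stood at -0.15 with let-7d (SE 0.053, adjusted p = 0.0712) and -0.027 with let-7e (SE 0.053, adjusted p = 0.818).

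The other genes of serine, glycine and folate metabolism did not move in 1 direction. Of 14 tested serine and glycine genes 3 rose (21.4%, beside 6.41% of all genes) and 0 fell with let-7d, and 2 rose (14.3%, beside 3.81%) and 1 fell (7.14%, beside 5.69%) with let-7e. The let-7d count that rose was 2 without control 2, control 4 or any 1 of the let-7d libraries. In these fits the let-7d call of Sptlc2, a further sphingolipid gene, was lost (highest adjusted p 0.0934). With let-7e the call of Sptlc2 was kept only without control 3 among the 8 fits that left out a library. The let-7e call of Gcsh, of glycine cleavage, which fell, was lost without control 2, let-7e 1, let-7e 2 or let-7e 4. Sfxn1, the carrier that takes serine into mitochondria, rose by 0.51 with let-7d (SE 0.056, adjusted p = 3e-05) and 0.47 with let-7e (SE 0.056, adjusted p = 1e-04), in all 8 fits without 1 library for each mimic. Sptlc1, a subunit of the enzyme that uses serine for sphingolipids, rose by 0.21 with let-7d (SE 0.053, adjusted p = 0.0134). Of 16 tested folate genes 3 rose (18.8%) and 1 fell (6.25%) with let-7d, beside 6.41% and 9.81% of all genes, and 1 rose (6.25%, beside 3.81%) and 0 fell with let-7e. The let-7e call was Mthfs, an enzyme that recycles formyltetrahydrofolate, and was kept only without control 3 among the 8 fits that left out a library. The one that fell was Mthfd1l, the mitochondrial formyltetrahydrofolate synthetase, by 0.34 (SE 0.089, adjusted p = 0.0166), a call that was lost without control replicate 1, let-7d 2 or let-7d 3 (highest adjusted p 0.0605). Ggh, which trims the glutamate tail of folates, rose by 0.36 with let-7d (SE 0.072, adjusted p = 0.00302), and the cytosolic Aldh1l1, a relative of Aldh1l2, rose by 0.27 (SE 0.080, adjusted p = 0.0308). The Aldh1l1 call was lost without control 1, control 4, let-7d 1, let-7d 2 or let-7d 4 (highest adjusted p 0.101), and the folate genes that rose with let-7d numbered 1 without control 4, let-7d 1 or let-7d 4.

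**Figure D4:**
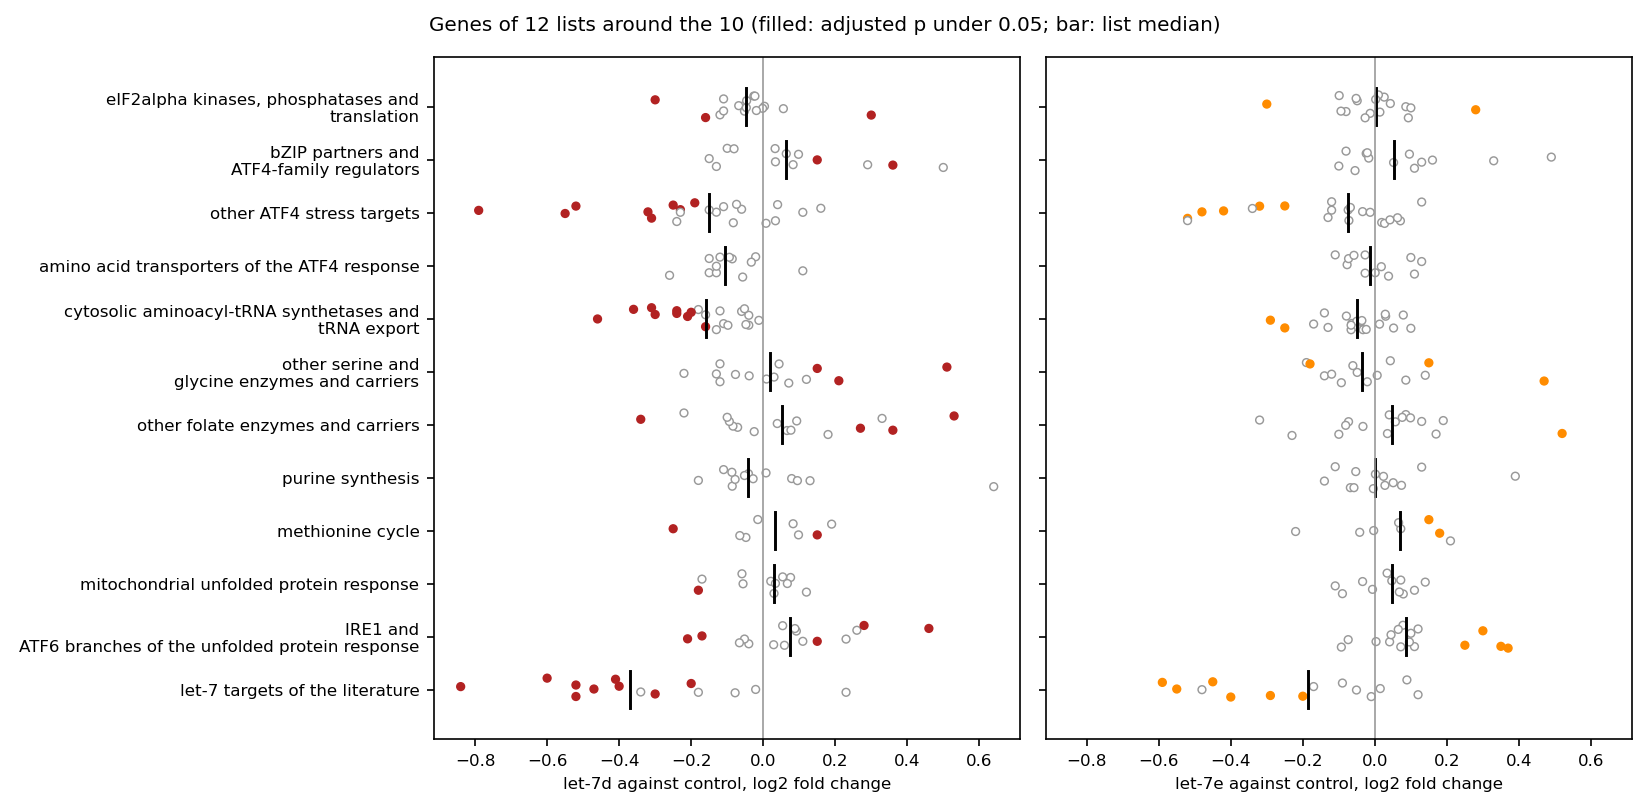
Log2 fold change against control of the genes of 12 lists around ATF4, serine and folate, let-7d on the left and let-7e on the right; filled points passed an adjusted p of 0.05 over all genes, and bars are list medians. Filled points lie only on the negative side for other ATF4 stress targets, aminoacyl-tRNA synthetases and let-7 targets, and on both sides for folate enzymes with let-7d.

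Upstream of ATF4, 17 genes for the kinases, phosphatases and translation factors of the eIF2 pathway were tested. With let-7d 1 rose (5.88%, beside 6.41% of all genes) and 2 fell (11.8%, beside 9.81%), and with let-7e 1 rose (5.88%, beside 3.81%) and 1 fell (5.88%, beside 5.69%), shares near those of all genes. The second that fell with let-7d, the eIF2B subunit gene Eif2b2 (-0.16, SE 0.053, adjusted p = 0.0494), kept its call only without control 2 or control 3 among the 8 fits that left out a library, and lost it with limma-voom. Dele1, which relays mitochondrial stress to eIF2 phosphorylation, fell by 0.30 with let-7d (SE 0.056, adjusted p = 0.00207) and by 0.30 with let-7e (SE 0.056, adjusted p = 0.00310), and Impact, an inhibitor of the amino acid sensing kinase GCN2, rose by 0.30 with let-7d (SE 0.070, adjusted p = 0.00828) and 0.28 with let-7e (SE 0.070, adjusted p = 0.0181). The let-7e call of Impact was lost without control 1, let-7e 1 or let-7e 2 (highest adjusted p 0.0751). A further list of 13 genes held basic leucine zipper partners of ATF4 and other regulators grouped with them, such as Ddit4 and Nupr1. Of these 13, 2 rose (15.4%, beside 6.41% of all genes) and 0 fell with let-7d, and 0 passed with let-7e by edgeR (2 without control 2). Cebpb, a partner of ATF4, was 1 of the 2, with a let-7d log2 fold change of 0.36 (SE 0.11, adjusted p = 0.0367) made up of 0.75 in the second series and -0.0048 in the first. Its call was lost without control 3, control 4, let-7d 3 or let-7d 4 (highest adjusted p 0.119). The call of the other, Nfe2l2, was lost without control 2, control 3, let-7d 1, let-7d 2 or let-7d 4 (highest adjusted p 0.122). Of 14 tested let-7 targets of the literature, 9 fell (64.3%, beside 9.81% of all genes) and 0 rose with let-7d (median -0.37), and 6 fell (42.9%, beside 5.69%) and 0 rose with let-7e (median -0.18). Among all genes with a seed site in the 3' untranslated region, 22.1% fell with let-7d, beside 8.65% of genes without one, and 13.5% fell with let-7e, beside 4.78%.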

How the data were processed

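RNA was measured in 12 libraries. The authors deposited raw counts per Ensembl gene as whole numbers, per the file headers and the values. They are named as taken after a filter on CPM, whose threshold is not given. Shares of all genes are therefore over the 15754 genes that were left. Per the submitters' processing notes STAR and the build GRCm38.p6 were used. The counting program, its use of strand and its treatment of reads with several matches are not stated in the labels, so overlapping or antisense genes and near-identical copies cannot be told apart. A further table that the authors deposited under the name RPKM was read as a score and entered no comparison. Dividing the counts, scaled to library totals, by this score gave lengths for 1 gene that disagreed among libraries, by a median ratio of highest to lowest of 69.4.

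Identifiers were matched to GENCODE vM21 (15736 of 15754), and filterByExpr removed 0 genes. With TMM scaling, edgeR 4.0.16 (R 4.3.3) fitted a quasi-likelihood model with terms for group and series to all 12 libraries (8 residual degrees of freedom). Effects within a series came from a model of 6 group-by-series means. Tests were two-sided, and p-values were adjusted after Benjamini and Hochberg over all genes. Over all genes the SE of a log2 fold change had a median of 0.0846 for let-7d and 0.0837 for let-7e. CPM are TMM-scaled, and levels per length use the union of exons. The scripts were tested on simulated data.

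The 10 genes and the gene lists were chosen with earlier results of these data known. The named genes are the 10, Hmga2 and Dicer1, from each of 12 lists the 3 genes with the smallest p for each mimic, and the 5 genes most like Atf4 and most like the mean of the 10. The text gives part of them. The design text states 6 replicates, and the 4 libraries listed for each group were used. No 2 libraries of a group and series matched within counting noise (chi-square per degree of freedom 2.311 to 9.923). The replicate numbers were checked for pairing, but with 2 libraries per group and series the check cannot settle whether they pair the libraries. The alternatives were other scalings (RLE, upper quartile), no filter and a filter of 1 CPM in 4 libraries, no series term, a replicate block, only the groups compared, each series alone, limma-voom 3.58.1, DESeq2 1.42.0, and leaving out each library in turn.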

Additional observations from a re-analysis of the deposited data

How the results depend on the processing

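The calls for Asns, Shmt2 and Aldh1l2 with let-7d kept their direction in all alternatives listed. With both series fitted they were lost only without the series term, where the spread between series enters the error. In the second series alone, with fewer libraries, all 3 were lost, at -0.24 for Asns (adjusted p = 0.093), -0.29 for Shmt2 (0.135) and -0.31 for Aldh1l2 (0.158). Without the series term the genes called numbered 7 with let-7d, 0 with let-7e and 1 between the mimics, and the members called 0, 0 and 0. Leaving out 1 library gave 1781 to 2535 genes and 3 to 6 members with let-7d, 844 to 1456 genes and 0 to 1 members with let-7e, and 3 to 17 genes and 0 members between the mimics. With let-7e the gene count moved most without let-7e 1 (844) and let-7e 2 (874), and between the mimics it was 3 without let-7d 1, let-7d 2, let-7d 4, let-7e 2 or let-7e 3, 4 without let-7e 1 and 7 without let-7d 3.

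Correlations of the deviations of same-numbered libraries ran from -0.1612 to 0.4266, highest for control with let-7d in the second series. With 2 libraries per group and series they cannot show whether the libraries pair. A replicate block gave 2530 genes and 4 members with let-7d, 1463 genes and 0 members with let-7e, and 5 genes and 0 members between the mimics. Between the mimics only the groups compared gave 98 genes and 2 members (Asns and Aldh1l2, the second at an adjusted p of 0.0435), and DESeq2 gave 122 genes. With let-7e limma-voom gave 0 members. With let-7d in the first series alone, edgeR gave -0.26 for Asns (adjusted p = 0.0478), -0.33 for Shmt2 (0.0177) and -0.54 for Aldh1l2 (0.0011). Ddit3 rose in that fit by 0.31 (adjusted p = 0.0207).

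Of 510 values of single members under an alternative, 461 kept direction and call, 30 lost the call, 4 gained it and 15 changed sign, all of them uncalled and near 0. Ddit3 with let-7d was -0.05 without the series term, and Trib3 with let-7d ran from -0.13 to 0.012 in the fits without 1 library, positive only without control 4. Trib3 with let-7e was 0.0098 with upper-quartile factors, 0.015 without the series term, 0.0057 with the block, 0.0063 with only the groups compared, 0.0044 with limma-voom, and -0.074 to 0.066 without 1 library, positive without control 1, control 4, let-7e 1 or let-7e 3. In the same fits with let-7e Psat1 ran from -0.08 to 0.034 and Mthfd2 from -0.10 to 0.024, both positive without control 1 or let-7e 1. The causes were not tested. No scaling moved the median of all genes beyond 0.023.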

Other observations

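Other pathways were described in the same way, where 6.41% of all genes rose and 9.81% fell with let-7d, and 3.81% rose and 5.69% fell with let-7e. Of 13 purine synthesis genes 0 passed the edgeR test with either mimic, with at most 1 in the fits that left out a library. Of 8 tested methionine cycle genes, 1 rose and 1 fell with let-7d, and 2 rose and 0 fell with let-7e, and each of these counts was 0 in at least 1 fit that left out a library. Of 11 genes of the mitochondrial unfolded protein response, 0 rose and 1 fell with let-7d (the protease gene Spg7, -0.18, SE 0.047, adjusted p = 0.0139, lost without let-7d replicate 3 at 0.0505, and also lost with only the let-7d and control libraries in the fit), and 0 passed with let-7e by edgeR, with at most 1 without a library. Of 16 genes of the IRE1 and ATF6 branches of the unfolded protein response, 3 rose (18.8%) and 2 fell (12.5%) with let-7d, and 4 rose (25.0%) and 0 fell with let-7e. Without 1 library 2 to 4 rose and 1 to 2 fell with let-7d, 1 falling without control 2, control 4, let-7d 2 or let-7d 3, and 2 rose with let-7e without control 1, control 4, let-7e 2 or let-7e 3. Sdf2l1, of the endoplasmic reticulum chaperones, rose by 0.46 with let-7d (SE 0.076, adjusted p = 0.000824) and 0.35 with let-7e (SE 0.076, adjusted p = 0.00895), while Dnajb9, another, fell by 0.21 with let-7d (SE 0.055, adjusted p = 0.0139).

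Within a series, the levels of most of the 10 genes moved together over the 12 libraries, which share their depth and scaling. Pearson's r of log2 CPM centred on the series mean had a median of 0.742 over the 45 pairs, given as a description. It was 0.556 to 0.946 over the 15 pairs among Asns, Psat1, Phgdh, Shmt2, Mthfd2 and Aldh1l2 and -0.372 to 0.31 over the 9 pairs with Ddit3. Among 10883 other genes the pattern most like the mean of the 10 was that of Aars, the alanyl-tRNA synthetase gene (r = 0.985), followed by Ddx21 (0.965), Wsb2 (0.962), G3bp1 (0.956) and Slc3a2 (0.948). The genes most like Atf4 were Fam57a (0.918), Erf (0.916), Srm (0.900), Kalrn (0.873) and Irf2bpl (0.871).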
